A study of Mus musculus with 20 samples.

Results

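Plasma cells are the antibody-secreting end of the B lineage, and 9 of the 31053 genes counted in each library, chosen by name as genes of plasma cell differentiation, are described here: Irf4, Prdm1, Xbp1, Derl3, Fkbp11, Mzb1, Jchain, Sdc1 and Tnfrsf17. Their unique molecular identifiers (UMIs, which mark single captured RNA molecules) were summed per library over B cells and over plasma cells and scaled to a total of 1000000 UMIs of those cells (CPM). B cells had at least 3 UMIs of Cd79a and Cd79b together, fewer than 20 of Jchain and none of Cd3d, Cd3e and Cd3g. Plasma cells had at least 20 UMIs of Jchain and at least 2 of Derl3 and Sdc1 together. Jchain therefore served to choose both cell types, and Derl3 and Sdc1 helped to choose the plasma cells, so the values of these genes across that boundary are descriptions with no test.

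A B cell becomes a plasma cell when the transcription factors IRF4 and BLIMP-1 (the protein of Prdm1) shut down its B cell programme, and XBP1, a factor of the unfolded protein response, enlarges the endoplasmic reticulum (ER). The enlarged ER carries folding and quality control proteins such as DERL3, FKBP11 and MZB1, and the J chain, product of Jchain, joins IgM and IgA monomers into polymers. Syndecan-1 (CD138, from Sdc1) and BCMA (from Tnfrsf17), a receptor for survival signals, mark the plasma cell surface. Irf4 and Prdm1 are also active in some activated T cells, and Xbp1 in many cell types.

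All 9 are protein-coding genes, given here with the identifiers of the files and, for 8 of them, their span in the GENCODE vM21 annotation of GRCm38. The regulators are Irf4 (ENSMUSG00000021356, chr13:30749226-30766976, plus strand), Prdm1 (ENSMUSG00000038151, chr10:44437177-44528501, minus strand) and Xbp1 (ENSMUSG00000020484, chr11:5520659-5525893, plus strand). The ER genes are Derl3 (ENSMUSG00000009092, chr10:75893413-75895941, plus strand), Fkbp11 (ENSMUSG00000003355, chr15:98724366-98728198, minus strand) and Mzb1 (ENSMUSG00000024353). Jchain (ENSMUSG00000067149) spans chr5:88519809-88527891 on the minus strand, Sdc1 (ENSMUSG00000020592) chr12:8771323-8793715 and Tnfrsf17 (ENSMUSG00000022496) chr16:11313812-11320074 on the plus strand. Counts come from the 3′ ends of transcripts, so levels are compared between cells and libraries and not between genes.

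The 20 libraries came from unselected live cells of 13 mice (C57BL/6N by the labels, while the study's methods name C57BL/6J for the Eµ-TCL1 line): 4 spleens and 3 sub-mandibular lymph nodes of Eµ-TCL1 mice, 4 of each tissue of Eµ-PRMT5/TCL1 mice, and 5 spleens of Eµ-PRMT5 mice. Eµ-PRMT5 mice carry a human cDNA of the arginine methyltransferase PRMT5, Eµ-TCL1 mice one of the TCL1 oncogene, and Eµ-PRMT5/TCL1 mice both, each driven in B cells by an immunoglobulin heavy chain promoter and enhancer. Disease in these lines resembles chronic lymphocytic leukaemia or lymphoma, and tissues were taken when the mice met the criteria for euthanasia, so the tissues hold advanced disease and differ in how much normal tissue is left. None of the groups analysed here is non-transgenic, and both sexes are present. Each mouse gave 1 spleen library, and 7 of the 13 mice also gave a lymph node. The comparisons asked how B lineage cells of the 3 genotypes differ in the spleen, how Eµ-PRMT5/TCL1 nodes differ from Eµ-TCL1 nodes, and how the tissues of 1 mouse differ. Libraries are named by group and number, and the human cDNAs were not counted on the mouse reference, where mouse Tcl1 was at 0 CPM in the B cells of every library.

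Of 84231 kept cells, 30890 were B cells by the rule (195 to 5136 per library) and 2588 were plasma cells (1 to 599 per library). Another 859 cells reached 20 UMIs of Jchain without 2 UMIs of Derl3 and Sdc1 and were put in neither class. Median depth was 4267 to 16712.5 UMIs per B cell and 7687 to 34145 UMIs per plasma cell. All 8 B cell markers on the list used here were detected in the B cells of every library, and 10 to 13 of 13 plasma cell markers, the members among them, in the plasma cells. The lists hold the genes that chose the cells (Cd79a and Cd79b, and Jchain, Derl3 and Sdc1), so this detection is a description with no test. Eµ-PRMT5 spleen 4 stood apart: its B cells summed to 1291 CPM over the B cell markers against 4772 to 8418 CPM in the other libraries, and 72.8% of them had a UMI of Mki67 or Top2a against 2.78% to 28.8% elsewhere. Of its 4029 kept cells, 800 were B cells, 7 plasma cells and 46 T cells, so most of its cells were in none of these classes. Where a difference of Eµ-PRMT5 spleen B cells is printed, its value without that library stands beside it. Of 190 pairs of libraries, none shared more than 68 cell barcodes, and the largest ratio to the number expected from the library sizes was 2.13.

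Plasma cells were called higher than B cells of the same library by edgeR for Prdm1, Xbp1, Fkbp11 and Mzb1, 4 of the 5 members tested. Of all genes, 26% were called higher in the same test (57.8% called in either direction). Of the other 4 members, Jchain, Derl3 and Sdc1 chose the cells, and Tnfrsf17 was too low in B cells for any fit of B cells and passed the filter only through the plasma cells, so that it had to differ. The 14 libraries with at least 20 plasma cells were used, with library as a block (edgeR quasi-likelihood test, Benjamini-Hochberg adjustment over 9778 genes). Irf4 was the member that was not called: its log2 difference was 0.15 ± 0.20 (SE, edgeR adjusted p 0.55), the smallest difference of the 9 members. These log2 differences include edgeR's scaling factors, so they need not match the CPM. In CPM the median of Irf4 was 85.9 in the B cells of 20 libraries and 60.0 in the plasma cells of 14.

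Among the regulators, Prdm1 was at 3.08 to 67.7 CPM in the B cells of the 20 libraries. In plasma cells it was at 24.5, 32, 13.7 and 72.8 CPM in Eµ-PRMT5 spleens 1, 2, 3 and 5, 60.8, 46.3 and 89.9 CPM in Eµ-TCL1 spleens 1, 3 and 4, 43.3 and 88.3 CPM in Eµ-PRMT5/TCL1 spleens 1 and 4, 52, 57.3 and 70.1 CPM in Eµ-TCL1 nodes 1 to 3 and 37.9 and 38.2 CPM in Eµ-PRMT5/TCL1 nodes 2 and 4. Within libraries the log2 difference of Prdm1, which includes edgeR's scaling factors, was 1.47 ± 0.21 (edgeR adjusted p 6.05e-06). In CPM the plasma cells of Eµ-TCL1 node 1 lay just under its B cells, and those of the other libraries lay above. The gap was small in Eµ-TCL1 node 3, at 70.1 CPM in plasma cells against 67.7 CPM in B cells. Over libraries the ranges of the 2 cell types overlapped widely. Xbp1 separated them without overlap: its B cells were at 46.3 to 670.3 CPM, while the plasma cells were at 1897, 1678, 1753 and 1509 CPM in Eµ-PRMT5 spleens, 1447, 2518 and 2776 CPM in Eµ-TCL1 spleens, 1763 and 2378 CPM in Eµ-PRMT5/TCL1 spleens, 1383, 2369 and 2186 CPM in Eµ-TCL1 nodes and 1709 and 918 CPM in Eµ-PRMT5/TCL1 nodes, in the same order of libraries. The log2 difference of Xbp1 was 3.76 ± 0.25 (edgeR adjusted p 5.20e-10). T cells of the 20 libraries, given as the level in another lymphocyte, were at 68.4 to 269 CPM of Xbp1, within the lower part of the B cell range.

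For the ER proteins, Fkbp11, a peptidyl-prolyl isomerase, rose from B to plasma cells by a log2 value of 4.93 ± 0.29, and Mzb1, a chaperone cofactor for immunoglobulin, rose by 2.70 ± 0.26 (edgeR adjusted p 9.76e-11 and 3.89e-08). Fkbp11 in plasma cells ranged from 16.2 CPM in Eµ-TCL1 spleen 3 to 542 CPM in Eµ-PRMT5/TCL1 node 4. Mzb1 was already high in B cells, at 316 to 2611 CPM, and near absent in T cells, at 0 to 11.4 CPM. The receptor gene Tnfrsf17, given with no test, was at 0 to 2.36 CPM in B cells and at 23.5 to 113 CPM in the plasma cells of the 14 libraries. The genes that chose the plasma cells differed by log2 values of 9.13 (Jchain), 5.48 (Sdc1) and 5.08 (Derl3), which the gate itself fixes in sign.

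**Figure D1:**
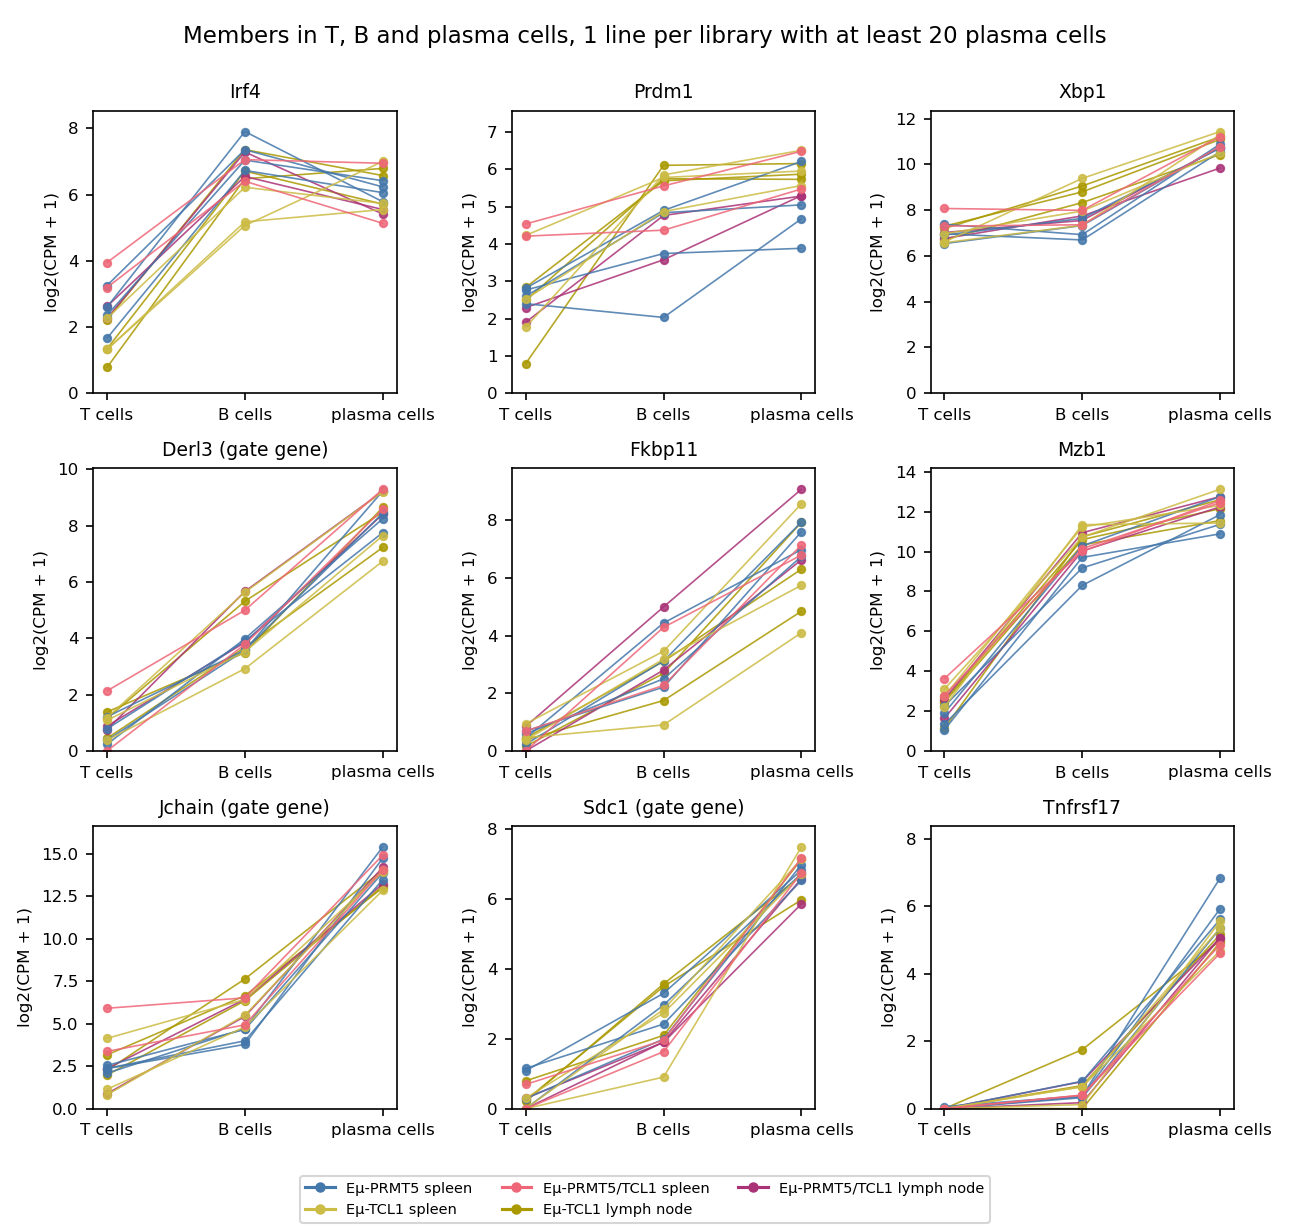
Level of each of the 9 members, as log2(CPM + 1), in T cells, B cells and plasma cells, with 1 line for each of the 14 libraries with at least 20 plasma cells and colours for the 5 groups. Xbp1, Mzb1, Fkbp11 and Tnfrsf17 climb from B to plasma cells in all 14 lines. Irf4 had a median of 85.9 CPM in the B cells of all 20 libraries and of 60.0 CPM in the plasma cells of the 14. The edgeR log2 difference of Irf4 (0.15 ± 0.20) includes scaling factors that the plotted CPM do not.

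Genes of the same pathway, from lists chosen with earlier results of these data known, differed between the cell types in 1 direction for the ER. All 23 genes of ER folding and the unfolded protein response were called higher in plasma cells (edgeR, median log2 difference 2.56 against -0.08 for all genes), among them the DERL3 partner Sdf2l1 (4.20 ± 0.22), the sensor Ern1, which splices Xbp1 RNA (4.01 ± 0.18), and the mannosidase-like Edem1 (3.51 ± 0.16). All 26 genes of ER translocation and secretion were called higher as well, with a median of 2.00, for example the coat subunit Sec24d (4.07 ± 0.21) and the translocon subunit Ssr4 (3.25 ± 0.18). Of 19 genes of the B cell programme that plasma cells switch off, 17 were called lower, including Spib (-3.80 ± 0.29), Cd22 (-2.95 ± 0.29) and Pax5 (-2.48 ± 0.28), the factor that holds B cell identity. Of 24 plasma cell regulators and survival or homing genes, 15 were called higher, such as Cd28 (5.54 ± 0.25) and Bhlha15, which builds the secretory apparatus (4.37 ± 0.31), and 5 were called lower. Lower calls made up 31.8% of all genes. Of 16 cell cycle genes 11 were not called, 4 were called lower and 1, Mcm6 (0.71 ± 0.09), higher, with a median of 0.17. The plasma cells were led by Ighm, the IgM heavy chain, in 90% to 100% of cells in these 14 libraries, and immunoglobulin genes took 17.7% to 54.6% of their UMIs against 1.60% to 5.62% in B cells.

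The ER stress response element (ERSE) is the promoter motif through which the factors ATF6 and XBP1 act with NF-Y on ER chaperone genes. Its letters, CCAAT and CCACG with 9 bases of any kind between them, on either strand, were sought in RefSeq promoters (GRCm38.p6, 250 bases before to 50 after each start), of which 39 of 32851 (0.119%) hold them. Promoters were found for 8 of the 9 members (9 promoters, Fkbp11 with 2), and Derl3 was the member with a match. Among the ER folding genes that were all higher in plasma cells, 7 of 19 with a promoter held it, against 0 of 20 genes of ER translocation and secretion. The Derl3 window and 5 of these 7 are printed to show the element where it was found, each 5′ to 3′ on the strand of its gene with the ERSE in capitals, where CCAAT first is the motif as spelled and CGTGG first its reverse complement:
Derl3, chr10:75893238-75893264, gene on the plus strand: ctacCGTGGGACTTCCCCATTGGctag
Hspa5, chr2:34772021-34772047, gene on the plus strand: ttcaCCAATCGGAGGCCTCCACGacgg
Dnajc3, chr14:118937823-118937849, gene on the plus strand: acaaCCAATCAGCGCCAACCACGaccc
Creld2, chr15:88819516-88819542, gene on the plus strand: ttctCGTGGCGAGCCTCAATTGGtcca
Pdia6, chr12:17266487-17266513, gene on the plus strand: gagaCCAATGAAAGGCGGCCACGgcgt
Canx, chr11:50325796-50325822, gene on the minus strand: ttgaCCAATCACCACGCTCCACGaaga
The match began 156 bases before the Derl3 start in this table, and 65 bases before that of Hspa5, which encodes the chaperone BiP. A match of letters is a description and not a site at which binding was measured. The shorter element TGACGTGG (0.676% of promoters) was in none of the members' promoters, and GAAA repeated after a gap of 2 bases, a form of the element bound by IRF family factors (3.44% of promoters), was in that of Tnfrsf17. That match is printed as the only one of its kind among the members, in capitals as its reverse complement:
Tnfrsf17, chr16:11313700-11313725, gene on the plus strand: ataggtggTTTCTGTTTCaggaatag

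B cells by the rule hold 0 to 19 Jchain UMIs, and the other members were graded along this range. B cells with 0, 1 to 4, 5 to 9 and 10 to 19 Jchain UMIs numbered 28659, 1618, 255 and 292 in libraries with at least 10 such cells (20, 16, 10 and 10 libraries). Median Xbp1 over libraries was 127, 643, 1724 and 1875 CPM in this order, with the bins of 5 to 9 and 10 to 19 within the plasma cell range (918 to 2776 CPM). Median Mzb1 was 950.1, 2659, 4558 and 4594 CPM, and median Derl3, which helps to draw misfolded proteins out of the ER, was 8.18, 39.8, 127 and 214 CPM. In these medians Xbp1 and Mzb1 had gained most of their difference by 5 to 9 Jchain UMIs. No Eµ-PRMT5 spleen had 10 cells in the bin of 5 to 9 or in that of 10 to 19, so the bins compare unlike sets of libraries.

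Prdm1 was graded less steeply, with medians of 25.4, 45.9, 71.1 and 77.7 CPM, and Fkbp11 had medians of 4.04, 13.2, 33.5 and 42.3 CPM. The surface genes were lowest in cells without Jchain: Sdc1 had medians of 1.18, 13.3, 29.5 and 39 CPM, and Tnfrsf17 had 0, 0.725, 5.69 and 8.26 CPM. Irf4 had medians of 80.8, 86.3, 85.4 and 109 CPM and showed little grading. Within libraries, cells with 1 to 4 Jchain UMIs were above cells with 0 in 16 of 16 libraries for Xbp1 and Mzb1, 15 for Sdc1, 14 for Prdm1 and Derl3, 12 for Fkbp11, 10 for Tnfrsf17 and 8 for Irf4. These counts are descriptions, since the bins come from a member. Jchain was at 0 to 59 CPM in T cells and at 167 to 6866 CPM in barcodes of 10 to 100 UMIs, which hold free RNA, so 1 Jchain UMI does not by itself mark a cell. The part of free RNA and of undetected doublets in the grading was not tested.

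**Figure D2:**
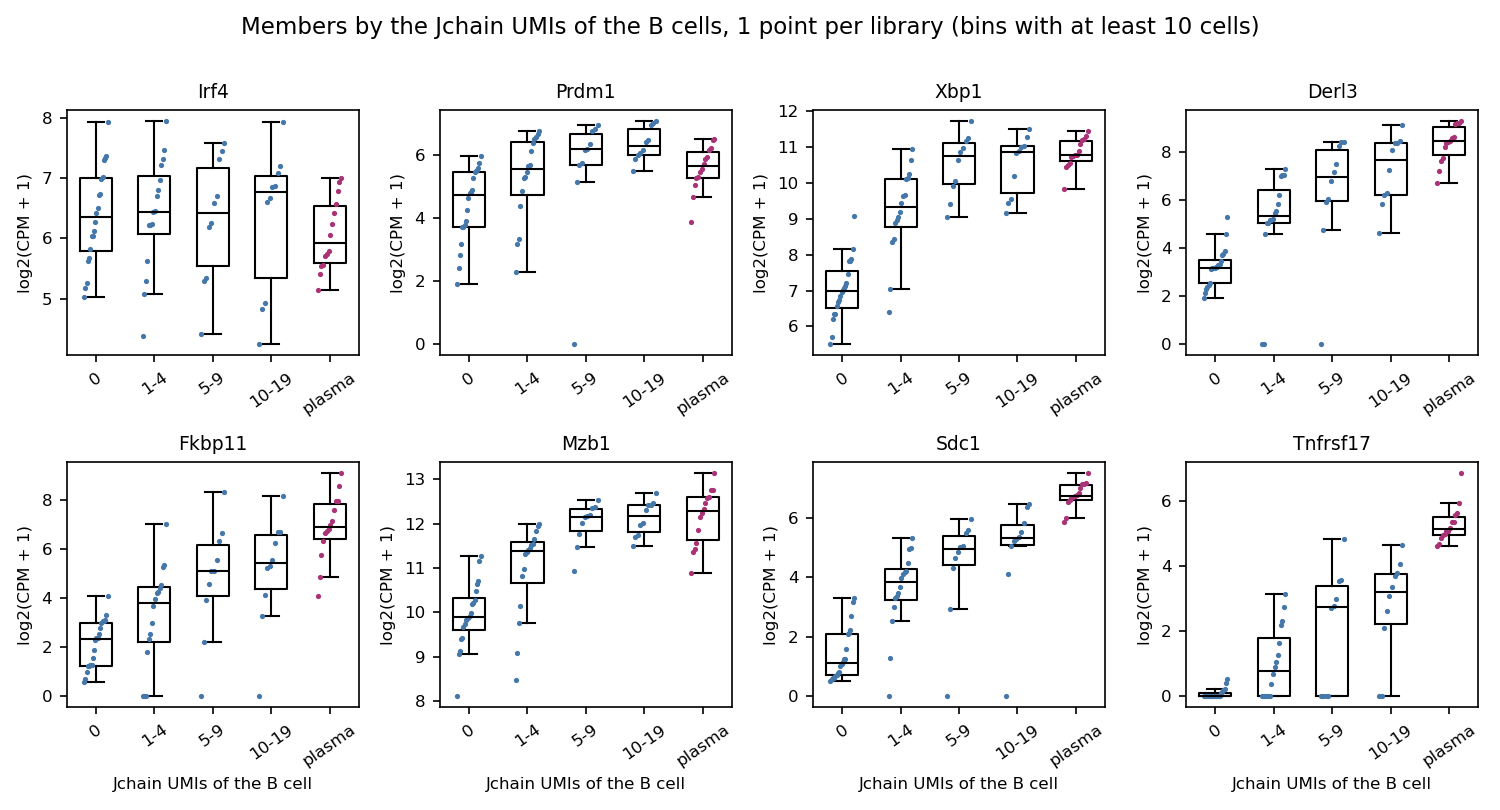
Level of 8 members, as log2(CPM + 1), in B cells with 0, 1 to 4, 5 to 9 and 10 to 19 Jchain UMIs and in plasma cells, with 1 point per library (bins of at least 10 cells; plasma cells in libraries with at least 20), boxes from the lower to the upper quartile and a line at the median. Median Xbp1 climbs from 127 to 1875 CPM across the B cell bins, and Irf4 stays between 80.8 and 109 CPM. Eµ-PRMT5 spleens are absent from the bins of 5 to 9 and 10 to 19.

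Between genotypes, B cells of Eµ-PRMT5/TCL1 lymph nodes had lower values of Prdm1, Xbp1 and Sdc1 than those of Eµ-TCL1 nodes, with no overlap between groups, but edgeR called no member after adjustment, and DESeq2 called Prdm1 alone of the members. In Eµ-TCL1 nodes 1 to 3, Prdm1 was at 52.6, 50.6 and 67.7 CPM (mean 57 ± 9.37, SD, n = 3). In Eµ-PRMT5/TCL1 nodes 1 to 4 it was at 7.94, 26.1, 15 and 10.9 CPM (mean 15 ± 7.95, n = 4). The highest Eµ-PRMT5/TCL1 value, in node 2, thus lay under the lowest Eµ-TCL1 value, also in a node 2. The log2 difference of Prdm1 was -1.85 ± 0.40 (SE, edgeR quasi-likelihood p 0.00135, adjusted p 0.497), and leaving out each library in turn gave -2.27 to -1.61. DESeq2 gave -1.85 and called it (adjusted p 0.00738).

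Xbp1 in the same B cells was at 321, 533 and 445 CPM in Eµ-TCL1 nodes and 46.3, 187, 83.1 and 214 CPM in Eµ-PRMT5/TCL1 nodes (means 433 ± 106 and 133 ± 80.7), which differed by -1.60 ± 0.53 on the log2 scale (edgeR p 0.0159, adjusted p 0.656). Sdc1 was low in B cells of all nodes, at 10.3, 10.8 and 3.27 CPM against 1.32, 2.74, 1.93 and 2.73 CPM, with -1.72 ± 0.51 as the log2 difference (edgeR p 0.00927, adjusted p 0.656). Every Eµ-TCL1 node lay above every Eµ-PRMT5/TCL1 node for both genes. Groups did not overlap, with the second lower, for 3 of the 7 members tested and for 4.32% of all 10892 genes (6.29% in either direction). edgeR called 0% of genes in this comparison, with 735 genes and these 3 members under an unadjusted p of 0.05, while DESeq2 called 63 genes, Prdm1 among them.

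The other members overlapped between the node groups. Irf4 was at 88.2, 104 and 163 CPM and 48.4, 155, 77.8 and 92.6 CPM, a log2 difference of -0.28 ± 0.42, and Mzb1 at 1716, 1289 and 1554 CPM and 536, 1047, 753 and 1977 CPM (-0.36 ± 0.45). Leaving out each library in turn gave -0.91 to -0.11 for Mzb1. Derl3 (0.06 ± 0.85) and Fkbp11 (1.20 ± 1.01) had their highest values in Eµ-PRMT5/TCL1 node 4, without which the differences were -1.10 and -0.46. The difference of Derl3 was also below 0 without Eµ-TCL1 node 1 (-0.25) or 3 (-0.22), and that of Irf4 was 0.10 without Eµ-TCL1 node 3. Jchain, a gate gene described only, was at 198, 99.1 and 80.5 CPM and 5.3, 42, 26.1 and 85.7 CPM. The median log2 difference of the 7 tested members other than Jchain was -0.36 against 0.02 over all genes, while the 23 ER folding genes had a median of -0.01 and the 26 ER translocation genes of -0.03, with 0 called in either list. Of 23 plasma cell regulators and survival or homing genes tested, 11 had a positive difference and 0 were called, with a median of -0.01. The one with the smallest p was the homing receptor Cxcr4, which differed by -1.25 on the log2 scale (edgeR p 0.000854, adjusted p 0.478).

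B cells without any Jchain UMI, looked at after the group values were known, gave the same order for Prdm1 and Xbp1. They were 28659 of the 30890 B cells, so most cells were the same, and the share of all genes without overlap was not counted. Prdm1 was at 37.3 to 62.1 CPM in the nodes of Eµ-TCL1 mice and 6.08 to 23.8 CPM in those of Eµ-PRMT5/TCL1 mice, and Xbp1 at 224 to 235 CPM and 44.4 to 147 CPM, without overlap. Sdc1 overlapped there, at 0.51 to 8.83 CPM and 0.424 to 1.39 CPM. In T cells of the same nodes Xbp1 was at 104 to 157 and 68.4 to 188 CPM and Prdm1 at 0.733 to 6.12 and 2.73 to 13.7 CPM, which overlapped. Free RNA leaned the same way for Xbp1 with overlap: barcodes of 10 to 100 UMIs were at 196 to 885 CPM in the former nodes and 82.7 to 276 CPM in the latter. Its part in the B cell difference was not tested. For Prdm1 these barcodes overlapped too, at 15.5 to 76.3 and 15.2 to 35.8 CPM. The sum of 7 neutrophil markers in B cells was 0 to 671 CPM in the nodes of Eµ-TCL1 mice and 0.372 to 4348 CPM in the other group, where node 3 was the high one. Cd3d, Cd3e and Cd3g were at 0 in both by the gate.

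**Figure D3:**
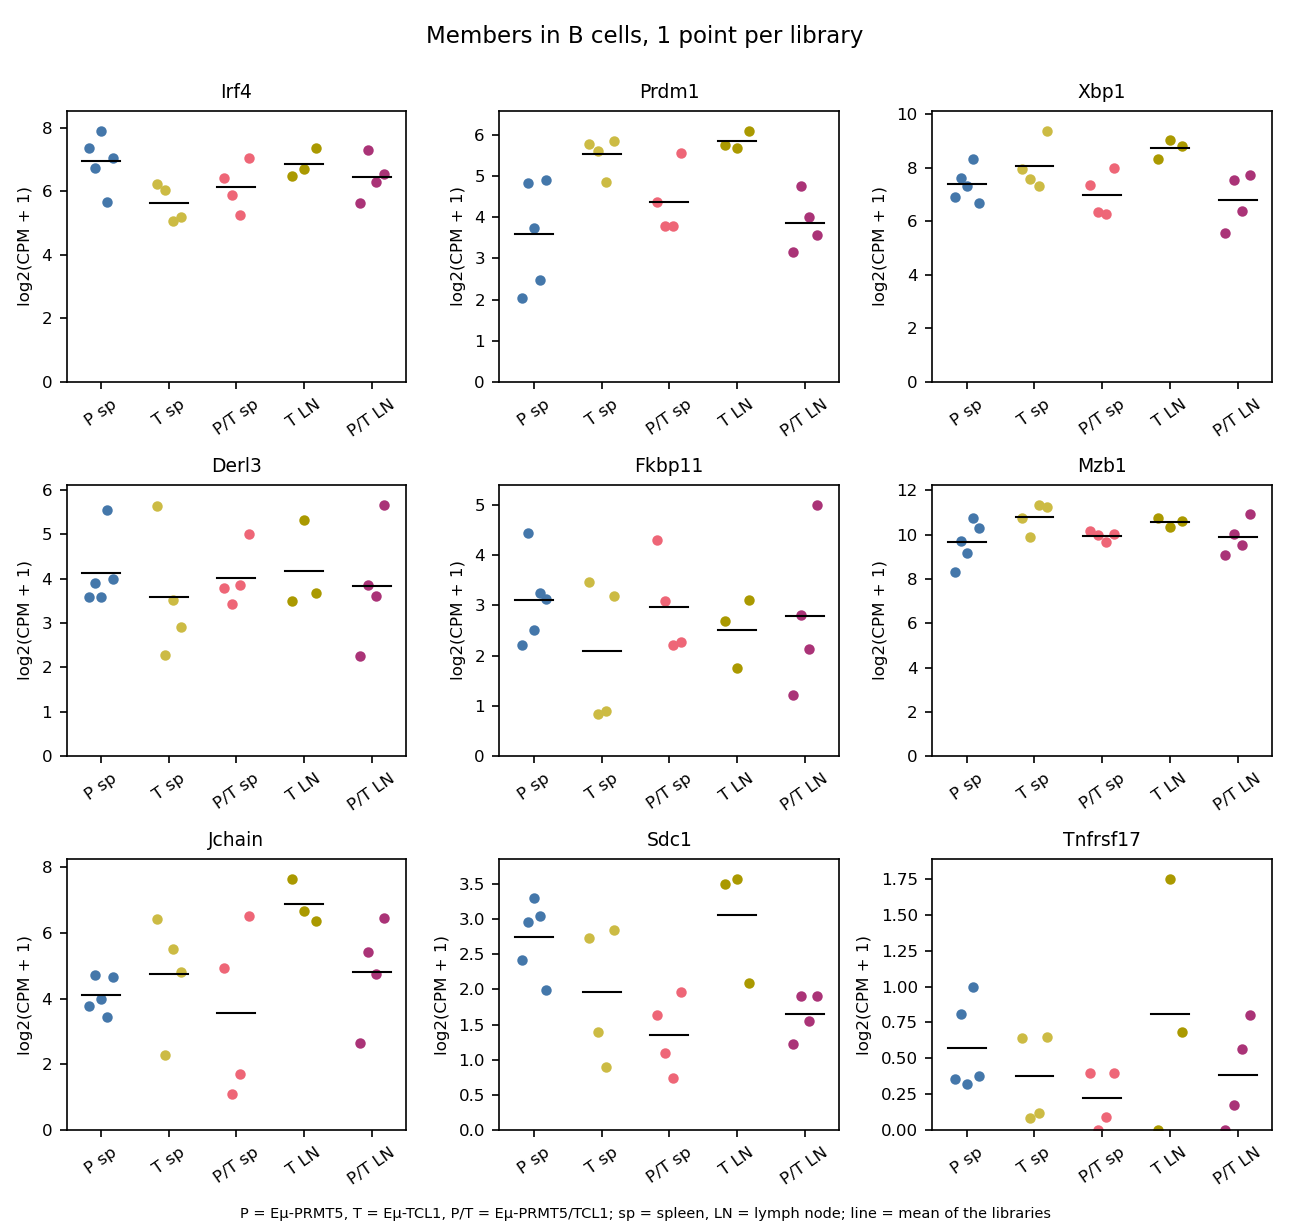
Level of each member in B cells as log2(CPM + 1), with 1 point per library, the mean of the libraries as a line, and the 5 groups along the axis. Prdm1, Xbp1 and Sdc1 show every Eµ-TCL1 lymph node above every Eµ-PRMT5/TCL1 node, and Irf4 has its highest point in Eµ-PRMT5 spleen 3.

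In the spleens, the B cells of Eµ-PRMT5 mice had higher Irf4 and lower Prdm1 than those of Eµ-TCL1 mice, and neither gene passed the adjusted threshold with edgeR, while both did with DESeq2. Irf4 was at 163, 105, 239, 49.8 and 131 CPM in Eµ-PRMT5 spleens 1 to 5 (mean 138 ± 70.2), 73.6, 64.5, 32.5 and 35.2 CPM in Eµ-TCL1 spleens 1 to 4 (51.5 ± 20.7) and 83.7, 57.5, 37.2 and 132 CPM in Eµ-PRMT5/TCL1 spleens 1 to 4 (77.7 ± 41). Of the Eµ-PRMT5 spleens, spleen 4 lay inside the Eµ-TCL1 range and the other 4 above it. The B cell mixtures differed: distinct leading immunoglobulin heavy V genes numbered 91, 36, 68, 2 and 29 in Eµ-PRMT5 spleens 1 to 5. They numbered 3, 7, 16 and 3 in Eµ-TCL1 spleens 1 to 4. In Eµ-PRMT5 spleen 3, 207 B cells of 1 V gene pair were at 535 CPM of Irf4, and 1036 of other pairs at 120 CPM. The part of such mixtures in the differences of Irf4 and Prdm1 was not tested. Irf4 differed between Eµ-PRMT5 and Eµ-TCL1 spleens by a log2 value of 1.28 ± 0.39 (edgeR p 0.0055, adjusted p 0.143), by 1.46 without Eµ-PRMT5 spleen 4, and DESeq2 called it (adjusted p 0.0231).

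Prdm1 in the B cells was at 3.08, 27.5, 12.4, 4.53 and 28.8 CPM in Eµ-PRMT5 spleens, 53.9, 48, 28.2 and 56.5 CPM in Eµ-TCL1 spleens and 19.6, 12.8, 12.7 and 45.9 CPM in Eµ-PRMT5/TCL1 spleens. Eµ-TCL1 spleen 3 lay just under the highest Eµ-PRMT5 spleen, and Eµ-PRMT5/TCL1 spleen 4 lay inside the Eµ-TCL1 range. Prdm1 differed between Eµ-PRMT5 and Eµ-TCL1 spleens by -1.76 ± 0.56 on the log2 scale (edgeR p 0.00783, adjusted p 0.155), by -1.55 without Eµ-PRMT5 spleen 4, and DESeq2 called it (adjusted p 0.041). With Eµ-PRMT5/TCL1 spleens set against the same Eµ-TCL1 libraries, it differed by -1.21 ± 0.59 (edgeR adjusted p 1).

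Xbp1 was at 121, 199, 159.9, 322.5 and 103.0 CPM in Eµ-PRMT5 spleens, 248, 189, 161 and 670.3 CPM in Eµ-TCL1 spleens and 164, 80.5, 76.8 and 254 CPM in Eµ-PRMT5/TCL1 spleens. Eµ-TCL1 spleen 4 stood above all other spleens, and all groups overlapped. Xbp1 differed by a log2 value of -1.30 ± 0.54 when Eµ-PRMT5/TCL1 spleens were set against Eµ-TCL1 spleens (edgeR p 0.0313, adjusted p 1), and by -0.66 without Eµ-TCL1 spleen 4. Mzb1 was at 316, 837, 580.3, 1739 and 1251 CPM, 1702, 963, 2611 and 2417 CPM and 1136, 1021, 812 and 1031 CPM in the same order of groups, with log2 differences from the Eµ-TCL1 group of -0.99 ± 0.49 (Eµ-PRMT5) and -1.04 ± 0.53 (Eµ-PRMT5/TCL1) (edgeR adjusted p 0.329 and 1). Without Eµ-PRMT5 spleen 4 the first of these was -1.50 (edgeR adjusted p 0.0663). Mzb1 was above all Eµ-PRMT5/TCL1 spleens in 3 of 4 Eµ-TCL1 spleens.

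Sdc1 was at 4.34, 6.79, 8.83, 7.22 and 2.97 CPM in Eµ-PRMT5 spleens, 5.64, 1.62, 0.869 and 6.14 CPM in Eµ-TCL1 spleens and 2.09, 1.13, 0.672 and 2.88 CPM in Eµ-PRMT5/TCL1 spleens. All Eµ-PRMT5/TCL1 spleens lay below all Eµ-PRMT5 spleens, with -1.90 ± 0.61 as the log2 difference (edgeR p 0.00773, adjusted p 0.451; -1.69 without Eµ-PRMT5 spleen 4). This was 1 of 7 members without overlap in that comparison, against 0.407% of genes lower and 1.83% in either direction. Between Eµ-PRMT5 and Eµ-TCL1 spleens 0 of 7 members and 5.01% of genes did not overlap, while Eµ-PRMT5/TCL1 against Eµ-TCL1 mice gave 0 of 7 and 3.28%. Without Eµ-PRMT5 spleen 4, 1 of 7 members, Irf4, did not overlap between Eµ-PRMT5 and Eµ-TCL1 spleens, against 16.6% of genes, and Sdc1 was still the 1 of 7 for Eµ-PRMT5/TCL1 against Eµ-PRMT5, against 3.21% of genes lower and 7.53% in either direction. For Irf4 the log2 value was -0.85 ± 0.38 in the same comparison of Eµ-PRMT5/TCL1 with Eµ-PRMT5 (edgeR adjusted p 0.561), and -1.03 without Eµ-PRMT5 spleen 4.

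Derl3 and Fkbp11 in B cells overlapped in each comparison of groups. Derl3 was at 3.78 to 49.7 CPM over the 20 libraries, with its 4 highest values, 38.9 to 49.7 CPM, in 4 different groups. Fkbp11 was at 0.778 to 31 CPM, and Tnfrsf17 at 0 to 2.36 CPM with the highest in Eµ-TCL1 node 2. Over the 3 spleen comparisons edgeR called 0 of 7 members, against 0.026%, 0.00866% and 0% of 11541 genes, with 2, 1 and 2 members and 1973, 520 and 1009 genes under an unadjusted p of 0.05. The order was Eµ-PRMT5 against Eµ-TCL1, then Eµ-PRMT5/TCL1 against Eµ-TCL1, then Eµ-PRMT5/TCL1 against Eµ-PRMT5. Without Eµ-PRMT5 spleen 4 edgeR still called 0 members, with 318 genes in the first and 3 in the last, and without Eµ-PRMT5 spleen 5 it called 69 genes and 0 members in the first. DESeq2 called 679, 21 and 112 genes, Irf4 and Prdm1 in the first of these and no member in the others. For all 9 members, neighbouring groups in the order of mean B cell level overlapped.

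Within mice, Irf4 had the largest log2 difference between tissues of the 7 members tested, and the gate gene Jchain, described only, had a larger one of 1.88 ± 0.94, with the node higher in 6 of 7 mice. Its B cells were at a mean of 104 ± 41.4 CPM in 7 lymph nodes and 69.2 ± 33.0 CPM in the spleens of the same mice. The Irf4 pairs of spleen and node were 73.6 and 88.2, 64.5 and 103.8, and 35.2 and 163.3 CPM in Eµ-TCL1 mice, and 83.7 and 155.2, 57.5 and 92.6, 37.2 and 77.8, and 132.2 and 48.4 CPM in Eµ-PRMT5/TCL1 mice. The node was the higher in 6 of 7 mice, with a log2 difference of 0.67 ± 0.33 (edgeR with mouse as a block, adjusted p 0.487). Xbp1 and Sdc1 were higher in the node in 5 of 7 mice, Prdm1, Derl3 and Tnfrsf17 in 4, Mzb1 in 3 and Fkbp11 in 2. No tested member moved 1 way in all 7 mice, against 4.09% of genes, and edgeR called 0 members and 0.00911% of genes, with 0 members and 1230 genes under an unadjusted p of 0.05, while DESeq2 called 272 genes and no member. The difference between genotypes in this tissue effect was tested too, and edgeR called 0 members and 0% of genes there, with 0 members and 191 genes under an unadjusted p of 0.05 and 2 genes called by DESeq2.

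The plasma cells themselves were compared between groups for the 6 members outside their gate, in libraries with at least 20 plasma cells. Tnfrsf17 was at 59.9, 48, 39.7 and 113 CPM in Eµ-PRMT5 spleens 1, 2, 3 and 5, 40, 46.3 and 24.7 CPM in Eµ-TCL1 spleens 1, 3 and 4, and 28.2 and 23.5 CPM in Eµ-PRMT5/TCL1 spleens 1 and 4. Both Eµ-PRMT5/TCL1 spleens lay below all 4 Eµ-PRMT5 spleens, and Eµ-TCL1 spleens overlapped with both. The log2 difference of Tnfrsf17 was -1.71 ± 0.42 for Eµ-PRMT5/TCL1 against Eµ-PRMT5 spleens (edgeR p 0.0016, adjusted p 0.562; DESeq2 adjusted p 0.0296), and 1.31 ± 0.36 for Eµ-PRMT5 against Eµ-TCL1 spleens (edgeR adjusted p 0.277). It was 1 of 6 members without overlap in the first of these, against 20% of genes in either direction and 1.18% lower. Immunoglobulin genes took 33.9% to 54.6% of plasma cell UMIs in the 4 Eµ-PRMT5 spleens, 21.4% to 31.7% in the 3 Eµ-TCL1 spleens, 33.3% and 43.7% in the 2 Eµ-PRMT5/TCL1 libraries. A high share lowers the CPM of every other gene, for which edgeR's scaling factors adjust the log2 differences.

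In the other spleen comparisons of plasma cells 0 of 6 members were without overlap, against 23.9% of genes in the first (Eµ-PRMT5 against Eµ-TCL1) and 19% in the second (Eµ-PRMT5/TCL1 against Eµ-TCL1). In lymph node plasma cells, Irf4 was at 109.8, 51.5 and 94.4 CPM in Eµ-TCL1 nodes and 41.7 and 45.9 CPM in Eµ-PRMT5/TCL1 nodes 2 and 4 (log2 difference -0.59 ± 0.34). Prdm1 was at 52, 57.3 and 70.1 CPM and 37.9 and 38.2 CPM (-0.31 ± 0.29). These 2 of 6 members did not overlap, against 31.1% of genes lower and 33% in either direction, which is close to the background. The log2 differences of the others were 1.76 ± 0.87 for Fkbp11, 0.71 ± 0.35 for Mzb1, 0.38 ± 0.27 for Tnfrsf17 and -0.19 ± 0.49 for Xbp1. Irf4 in plasma cells was also higher in the node than in the spleen in 3 of 3 mice with enough cells in both (82.0 ± 35.7 against 44.1 ± 9.19 CPM, log2 difference 0.77 ± 0.22, edgeR p 0.0062, adjusted p 0.788), while Prdm1, Xbp1 and Mzb1 were lower in 3 of 3. That direction was shared by all 3 mice for 23.9% of genes, 15% higher and 8.81% lower. edgeR called 0 members in the 5 comparisons of plasma cells and 0% of genes, or 0.05% between tissues. Under an unadjusted p of 0.05 it had 808, 395, 475 and 710 genes in the 3 spleen and the node comparisons and 368 between tissues, and DESeq2 called 66, 7, 36, 31 and 7 genes, with Tnfrsf17 in the third of these as the only member.

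Plasma cells made up 0.0356% to 12.2% of kept cells, and 2 spleens of different groups held 1042 of the 1473 plasma cells found in spleens (70.7%). They were 1.64%, 2.14%, 1.46%, 0.174% and 0.561% in Eµ-PRMT5 spleens 1 to 5, 8.39%, 0.0481%, 0.723% and 0.852% in Eµ-TCL1 spleens 1 to 4, and 3.26%, 0.0356%, 0.187% and 12.2% in Eµ-PRMT5/TCL1 spleens 1 to 4. Eµ-TCL1 spleen 1 and Eµ-PRMT5/TCL1 spleen 4 thus stood above the other spleens (95% Wilson intervals 7.68 to 9.17 and 11.3 to 13.1%, which cover counting error only), and the 3 groups overlapped. The differences of group means in the spleen were -1.31 percentage points for Eµ-PRMT5 against Eµ-TCL1, 1.41 for Eµ-PRMT5/TCL1 against Eµ-TCL1 and 2.72 for Eµ-PRMT5/TCL1 against Eµ-PRMT5 (exact two-sided permutation p 0.730, 0.686 and 0.365). Without Eµ-TCL1 spleen 1 the first became 0.654, and without Eµ-PRMT5/TCL1 spleen 4 the second became -1.34 and the third -0.0338. Without Eµ-PRMT5 spleen 4 the first was -1.05 and the third 2.47. Per 100 B and plasma cells they were -5.37, -3.84 and 1.52, so the second turned direction.

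Lymph nodes of Eµ-TCL1 mice held 2.86%, 7.32% and 9.55% plasma cells (6.58 ± 3.40, n = 3) and those of Eµ-PRMT5/TCL1 mice 1.02%, 3.05%, 0.192% and 3.15% (1.85 ± 1.48, n = 4). Eµ-TCL1 node 1 lay inside the range of the other group. The difference was -4.73 percentage points (exact permutation p 0.0857, adjusted over 5 comparisons 0.429). Counted per 100 B and plasma cells the groups did not overlap, at 23.8 ± 10.5 and 5.55 ± 5.21 (exact permutation p 0.0286, the smallest that 3 against 4 libraries allow, adjusted 0.143). Between tissues of the same 7 mice the share was higher in the node in 4, by a mean of 0.311 points (exact permutation p 0.922), and it turned to -0.849 without the mouse of Eµ-TCL1 spleen 2, to -1.09 without that of Eµ-TCL1 spleen 4 and to -0.155 without that of Eµ-PRMT5/TCL1 spleen 2. Per 100 B and plasma cells it was higher in the node in 6 of 7 mice, by a mean of 4.71 (exact permutation p 0.344). The threshold on UMIs per barcode and the amount of other cells in each tissue can set such shares.

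The share of B cells with at least 3 of the 8 members other than Jchain, each cell thinned to 1500 UMIs, gave a like picture in the nodes. It was 5.64%, 9.12% and 9.53% in Eµ-TCL1 nodes and 0.487%, 2.97%, 1.38% and 5.55% in Eµ-PRMT5/TCL1 nodes, a difference of -5.50 points (exact permutation p 0.0571, adjusted 0.286). The groups met without overlapping, since Eµ-PRMT5/TCL1 node 4 lay just under Eµ-TCL1 node 1. They overlapped with a Jchain limit of 10, at 5.01% in that Eµ-PRMT5/TCL1 node against 4.35% in that Eµ-TCL1 node (exact permutation p 0.0857), and with doublets kept in, at 5.69% against 5.61% (exact permutation p 0.0857). With at least 2 of 8 members they overlapped too, at 26.5% and 24.9% in Eµ-PRMT5/TCL1 nodes 2 and 4 against 21% in Eµ-TCL1 node 1 (exact permutation p 0.171). In spleens the means were 4.90 ± 2.92% in Eµ-TCL1, 3.52 ± 2.11% in Eµ-PRMT5 and 2.40 ± 2.05% in Eµ-PRMT5/TCL1 mice, with exact permutation p of 0.429, 0.20 and 0.460 in the order of the comparisons above. Leaving out Eµ-PRMT5 spleen 4 changed the first of these differences of means from -1.38 to -2 points and the third from -1.12 to -0.497. Over all libraries left out in turn, the first ran from -2.31 to -0.324 and the second, -2.50 with all libraries, from -3.43 to -1.44, both nearest to 0 without Eµ-TCL1 spleen 4. The third ran from -2.05, without Eµ-PRMT5/TCL1 spleen 4, to -0.497. Between tissues of the 7 mice the node was higher in 5, by a mean of 1.1 points (exact permutation p 0.391), or 0.199 to 2.05 with each mouse left out in turn, and with at least 2 of 8 members the mean was -0.873. T cells thinned to the same depth had 0% to 0.0831%, plasma cells 40% to 100%, and without thinning the B cells had 8.56% to 56.3%. The plasma cell value is partly fixed by the gate, since Derl3 and Sdc1 are among the 8 members, and libraries held as few as 1 plasma cell. No B or plasma cell was below 1500 UMIs.

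**Figure D4:**
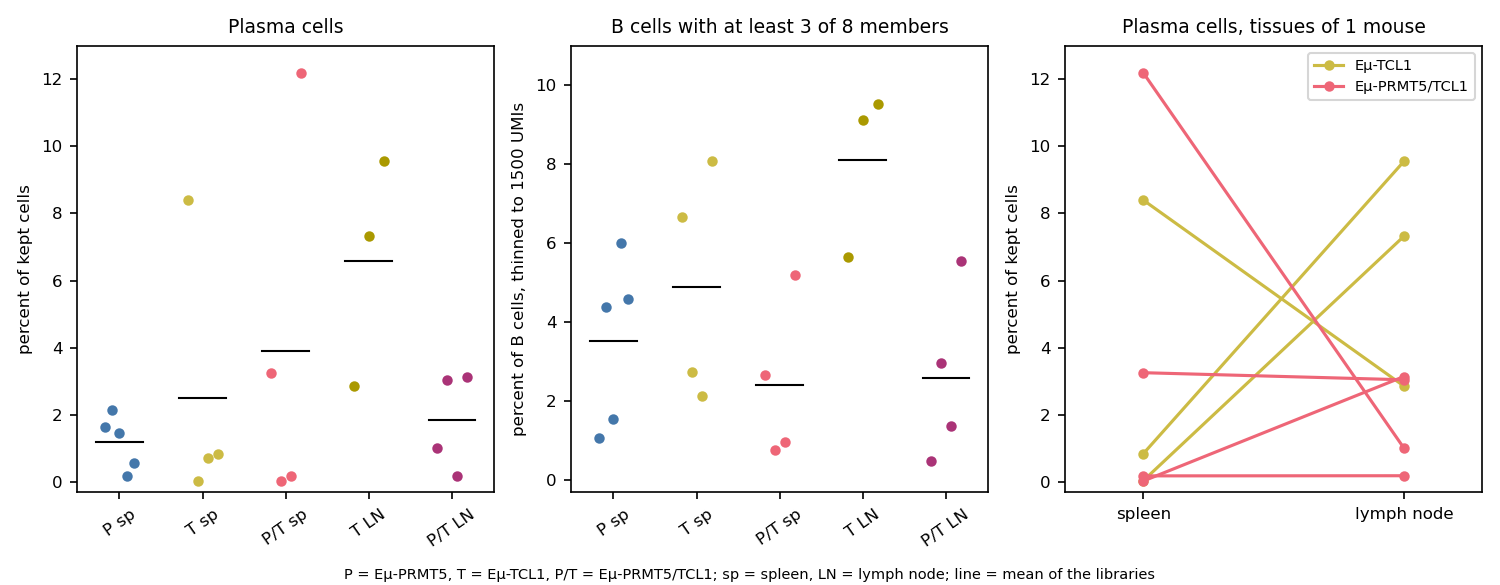
Left, plasma cells as a percent of kept cells; middle, B cells with at least 3 of 8 members as a percent of B cells thinned to 1500 UMIs; 1 point per library and the mean as a line. Right, the plasma cell percent in the spleen and lymph node of each of the 7 mice, where 4 lines rise and 3 fall; Eµ-TCL1 spleen 1 (8.39%) and Eµ-PRMT5/TCL1 spleen 4 (12.2%) stand above the other spleens.

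The immunoglobulin V genes of each cell, which the rule did not use, showed whether plasma cells carried the V genes that led among the B cells of their library. A leading heavy and light V gene was called in B cells with at least 3 V gene UMIs per chain and in plasma cells with at least 10. The plasma cells carried the leading pair of the B cells in 440 of 440 cells in Eµ-TCL1 spleen 1 (100%), 107 of 109 in Eµ-TCL1 node 1 (98.2%) and 219 of 219 in Eµ-TCL1 node 2 (100%). In Eµ-PRMT5/TCL1 mice they did so in 167 of 177 cells of spleen 1 (94.4%), 597 of 598 of spleen 4 (99.8%), 121 of 134 of node 2 (90.3%) and 233 of 236 of node 4 (98.7%). In these 7 libraries, some of them from the same mouse, most plasma cells thus shared called V genes with most B cells. The part of free RNA in the B cell calls was not tested. Ighv1-55 with Igkv12-89 led among B cells in Eµ-TCL1 spleen 1 and also in Eµ-PRMT5 spleen 5, so a shared pair is not by itself a shared clone. Libraries with fewer than 20 plasma cells varied. The match was 1 of 7 in Eµ-PRMT5/TCL1 spleen 3, 4 of 10 in node 3 of the same mouse, 7 of 7 in node 1 and 1 of 1 in spleen 2. It was 3 of 3 in Eµ-TCL1 spleen 2 and 6 of 7 in Eµ-PRMT5 spleen 4. In Eµ-PRMT5 spleens the match was 1 of 52 cells in spleen 1 (1.92%), 0 of 20 in spleen 2, 3 of 61 in spleen 3 (4.92%) and 20 of 31 in spleen 5 (64.5%) (95% Wilson intervals 0.34 to 10.1%, 0 to 16.1%, 1.69 to 13.5% and 46.9 to 78.9%, for counting error only). Among the B cells of Eµ-PRMT5 spleens 1, 2, 3 and 5, 9.81%, 63.7%, 38.9% and 77.6% carried the leading pair themselves. In the 7 libraries listed first it was 69.0% to 99.9%. Where few B cells carry the leading pair, as in Eµ-PRMT5 spleen 1, a low match cannot tell how plasma cells and B cells are related. The plasma cells of that spleen carried 39 distinct pairs.

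Eµ-TCL1 spleens 3 and 4 and node 3 differed from the other Eµ-TCL1 libraries. The match was 5 of 31 plasma cells in spleen 3 (16.1%), 0 of 41 in spleen 4 and 0 of 396 in node 3 (95% Wilson intervals up to 32.6%, 8.57% and 0.961%), where spleen 4 and node 3 come from the same mouse. In that mouse 95.1% and 98.7% of the plasma cells carried Ighv12-3 with Igkv4-91, a pair found in 47.0% and 42.5% of its B cells, while 52.2% and 57.1% of its B cells carried Ighv12-3 with Igkv17-127. B cells with Ighv12-3 and Igkv4-91 were compared with its B cells of another pair as a description of 1 mouse. In node 3 Xbp1 was at 733 and 245 CPM in the 2 sets, Sdc1 at 7.74 and 0 CPM and Jchain at 179 and 11.1 CPM. In spleen 4 Xbp1 was at 943 and 411 CPM, Sdc1 at 11.2 and 1.44 CPM and Jchain at 49.4 and 5.86 CPM. The B cells that shared the V genes of the plasma cells were the higher for these genes in both tissues. The part of free RNA and of undetected doublets with plasma cells in these differences was not tested. Prdm1 differed less, at 72.1 and 64.7 CPM in node 3 and 66.7 and 47.3 CPM in spleen 4, and Irf4 was lower, at 139 and 183 CPM in node 3.

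Over the 11 libraries with at least 20 plasma cells and 20 B cells in each set, B cells with the plasma cells' pair were higher than the others in 8 for Prdm1, Jchain, Derl3 and Fkbp11, 7 for Mzb1 and Tnfrsf17, 6 for Xbp1 and Sdc1 and 5 for Irf4. These counts are descriptions, since some mice gave both tissues and the share over all genes was not counted. The 2 further libraries with enough B cells had fewer plasma cells. In Eµ-PRMT5/TCL1 node 3 all 9 members were lower in the B cells with the plasma cells' pair, for example Prdm1 at 11.3 against 57.1 CPM and Xbp1 at 76.8 against 352 CPM. The set of another pair held only 24 cells with 105085 UMIs, so these values rest on few UMIs, and 4 of 10 plasma cells carried the leading pair. In Eµ-TCL1 spleen 2 all but Irf4 were higher in the B cells with that pair, for example Prdm1 at 49.7 against 34.7 CPM and Xbp1 at 200.5 against 120 CPM. With 6 of the 11 libraries for each gene, the pattern of Xbp1 and Sdc1 in the mouse above was not general. Near-identical V genes can share reads, so a called pair is a description and not a sequence of the antibody.

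**Figure D5:**
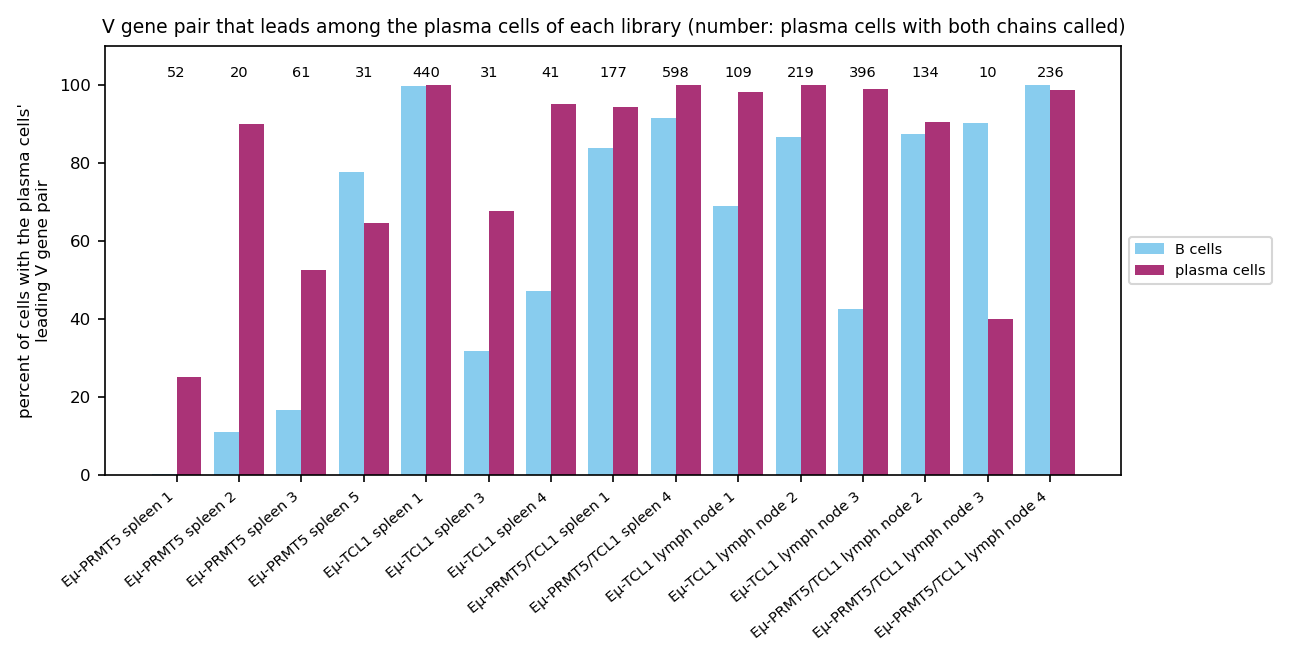
Percent of B cells and of plasma cells that carry the V gene pair leading among the plasma cells of the library, for 15 libraries with at least 10 plasma cells called for both chains; the number above each pair of bars is the plasma cells with both chains called. In Eµ-TCL1 spleen 4 and lymph node 3 the B cell bars are at 47.0% and 42.5% beside plasma cell bars at 95.1% and 98.7%.

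Among the members, levels in B cells went together across the 20 libraries for Xbp1 with Sdc1 and Mzb1 (Spearman's rho 0.67 for each) and with Jchain (0.65) and Prdm1 (0.61), and for Derl3 with Tnfrsf17 (0.69). Irf4 had rho values from -0.29 with Mzb1 to 0.46 with Sdc1, and Prdm1 from -0.02 with Derl3 to 0.61 with Xbp1. These are descriptions, since 7 mice gave 2 libraries each and all genes of a library share its depth and its mix of clones. Of 5674 genes ranked by their correlation with the mean standardised level of the members, the most alike were Edem2 (rho 0.79), Edem1 (0.75), Herpud1 (0.74), P4hb (0.71) and Trp53inp1 (0.70), against a median of -0.03 over all of them. Edem1 was at 54.8 to 219 CPM and Herpud1 at 198 to 577 CPM in B cells. The members' mean level had a rho of -0.08 with median UMIs per B cell.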

How the data were processed

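Single-cell RNA-seq libraries were prepared with 10x Genomics 3′ v2 chemistry from 20 tissues. The authors deposited unfiltered matrices of whole-number UMI counts per gene and barcode, not normalized, for 31053 mouse genes. Per the labels' processing notes, Cell Ranger 2.0.1, Seurat 2.2.1 and the genome GRCm38 were used, whereas the file headers name Cell Ranger version 3.1.0. Strand settings and the annotation used for counting are not given in the sources used here.

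Barcodes with at least 1 in 10 of the UMIs at the 99th percentile of the 3000 largest barcodes, with 200 or more genes detected and no more than 10% of UMIs from mitochondrial genes, were called. The highest-scoring 0.8% per 1000 called cells by scanpy 1.11.5's doublet score were removed (3542 barcodes), leaving 688 to 7631 cells per library. Total UMIs were 9348090 to 72440900 per library. T cells had at least 2 Cd3 UMIs, none of Cd79a and Cd79b and fewer than 20 of Jchain.

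Counts were summed per library and cell class, low genes were removed with filterByExpr, and sums were tested with edgeR 4.0.16 (TMM factors, quasi-likelihood F test, Benjamini-Hochberg over all genes tested, threshold 0.05) in R 4.3.3. The 13 spleens shared 1 fit, the 7 lymph nodes another, and the 14 libraries of 7 mice a fit with mouse as a block, since the tissues of a mouse deviated together (correlation 0.12 to 0.63, over 0.1 in 7 of 7). Plasma cell fits used libraries with at least 20 plasma cells. Shares were tested with exact two-sided permutation tests over libraries, adjusted over 5 comparisons. DESeq2 1.42.0, RLE factors, no filter, other gates, doublets kept in, immunoglobulin genes removed, an Xist covariate and leaving out each library were alternatives. A fit of only the 2 groups compared, and counts of members without overlap that leave out Eµ-PRMT5 spleen 4, were added after seeing the data. The fits were tested on simulated data.

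The members, the gene lists and the rules for naming genes were chosen with earlier results of these data known. The rule named all 9 members, the 10 genes most correlated with them in B cells, and per list and comparison up to 4 genes with the largest log2 difference among those called at 20 CPM or more, or the 1 with the smallest p where none was called. The text prints only part of the list and correlated genes the rule gave, picked with their values known. Genes shown for their promoter were picked outside the rule, from those with a motif match. Promoter windows came from a RefSeq table (GRCm38.p6).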

Additional observations from a re-analysis of the deposited data

Results flagged for a closer look

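Of 53 sets of 4 or 5 libraries examined for 1 library far from the rest by Dixon's criterion, 5 were marked, and chance marks about 1 in 20. Derl3 in B cells was at 45.9 CPM in Eµ-PRMT5 spleen 4 against 14.8 CPM in the next library of its group, and at 48.7 CPM in Eµ-TCL1 spleen 1 against 10.5 CPM in the next. Fkbp11 in B cells was at 20.7 CPM in Eµ-PRMT5 spleen 2 against 8.50 CPM in the next, and at 31 CPM in Eµ-PRMT5/TCL1 lymph node 4 against 6.00 CPM in the next. Plasma cells made up 8.39% of kept cells in Eµ-TCL1 spleen 1, and 0.852% in the next Eµ-TCL1 spleen.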

How the results depend on the processing

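The number of members called between groups was 0 with edgeR under every edgeR alternative run, and DESeq2 called 2 in B cells of Eµ-PRMT5 against Eµ-TCL1 spleens (Prdm1 and Irf4), 1 in B cells of the lymph nodes (Prdm1) and 1 in plasma cells of Eµ-PRMT5/TCL1 against Eµ-PRMT5 spleens (Tnfrsf17). Over all genes, DESeq2 against edgeR called 679 against 3, 21 against 1 and 112 against 0 in B cells of the 3 spleen comparisons (in the order of the report), 63 against 0 in the nodes, 272 against 1 between tissues and 2 against 0 for the genotype difference in the tissue effect. In plasma cells it was 66, 7, 36 and 31 against 0 each, and 7 against 4 between tissues. Leaving out 1 library gave edgeR gene counts of 1 to 318 in the first B cell comparison (318 without Eµ-PRMT5 spleen 4, 69 without spleen 5, 9 without Eµ-TCL1 spleen 1), and leaving out 1 mouse 0 to 55 in B cells between tissues (55 without the mouse of Eµ-PRMT5/TCL1 spleen 4). Without the filter edgeR called 83 genes between tissues in B cells, and in plasma cells 181, 14 and 101 in the spleens and 105 between tissues. The causes of these gaps were not tested. Over alternatives the edgeR or DESeq2 adjusted p of Prdm1 in node B cells ran from 0.00738 (DESeq2) to 1, and was 0.497 as reported. Deviations of same-numbered libraries of different groups correlated by -0.26 to 0.38. They were over 0.1 in 3 of 4, 2 of 4 and 2 of 4 pairs in the spleen comparisons and 1 of 3 in the nodes. Tissues of 1 mouse correlated by 0.12 to 0.63, which overlaps with these values. Whether same-numbered libraries share more than a number was not tested. With the replicate block 0 members were called wherever it could be fitted, Prdm1 in node B cells was at -1.87 on the log2 scale, with 10, 0, 1 and 0 genes called in the B cell and 223 and 12 in the plasma cell comparisons, and without the block the tissue comparison also called 0. The replicate block could not be fitted for plasma cells of Eµ-PRMT5/TCL1 against Eµ-PRMT5 spleens and of the nodes, which share 1 number among libraries with enough plasma cells.

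Differences in plasma cell share changed sign in some settings: -0.0138 points between tissues with a Jchain limit of 40, and -3.84 per 100 B and plasma cells for Eµ-PRMT5/TCL1 against Eµ-TCL1 spleens. With at least 2 of 8 members, the share of B cells differed by -0.873 points between tissues, of the opposite sign to the value with 3. Leaving out each library in turn gave plasma cell differences of -2.13 to 0.654 points (Eµ-PRMT5 against Eµ-TCL1 spleens), -1.34 to 3.37 (Eµ-PRMT5/TCL1 against Eµ-TCL1 spleens), -0.0338 to 4.01 (Eµ-PRMT5/TCL1 against Eµ-PRMT5 spleens), -6.58 to -3.24 (nodes) and -1.09 to 2.22 (tissues of 1 mouse). The sign turned without Eµ-TCL1 spleen 1 in the first, without Eµ-PRMT5/TCL1 spleen 4 in the next pair of comparisons, and without the mice of Eµ-TCL1 spleens 2 and 4 and Eµ-PRMT5/TCL1 spleen 2 in the last. Precision was limited by 3 to 5 libraries a group and 1 to 599 plasma cells a library.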
